A study of Mus musculus with 14 samples.

Results

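The peak lists of H3K27me3 from cerebellum at postnatal day 7 (P7) were compared with those from adult cerebellum at postnatal day 60 (P60). These are 6 of the 14 libraries of the series, 3 per age, and they were chosen by their labelled age alone. The mice were C57BL/6NCrl animals of both sexes, and no genetic change or treatment is named for either group. Each P7 library pooled several mice, whereas each P60 library came from a single mouse, so pool size and age cannot be told apart. H3K27me3 was measured by chromatin immunoprecipitation and single-end sequencing (ChIP-seq) of cerebellar tissue, named cerebellum in the labels and in places cerebellar cortex by the study, and the series record describes the libraries as biological replicates. Between these ages granule neuron precursors (GNPs) finish dividing and cerebellar granule neurons (CGNs) mature, and the comparison asks where the mark is lost, kept or gained over that time. 

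H3K27me3 is trimethylation of lysine 27 on histone H3. Polycomb repressive complex 2 writes it, Polycomb repressive complex 1 can bind it, and demethylases such as Kdm6b remove it. It lies over CpG-rich promoters of genes that are silent in a lineage, and over whole clusters of developmental regulators such as the Hox genes, regulators of position from head to tail. In the cerebellum it also lies on genes of mature neurons before they are switched on.

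The measure throughout was coverage. For each of 21938 protein-coding genes, promoter coverage is the percent of the window of 3 kb on each side of a transcription start site (TSS) that lies under peaks, taken at the gene's most covered TSS. A promoter with any covered base is called marked. The rank of a gene is its place by coverage among all genes of the same library, with rank 1 the highest. Coverage records where the authors' caller found enrichment over each library's own background. It is not an amount of the mark, and the read depth behind each list is unknown.

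Stretches of promoter sequence show the main outcomes. Each is the 200 bases before an annotated TSS with no annotated exon inside. It is read 5′ to 3′ on the gene's strand from the RefSeq assembly GRCm38.p6, the same build as mm10, with each CpG in capitals. Of a gene's TSSs, the most covered at P7 was taken for Rara, Hoxc13 and Myod1, and the most covered at P60 for Marcksl1 and Gm11168. The contrast between the ages is thus in part built in, and the stretches only illustrate it. The stretch of Rara, at chr11:98960212-98960411 (+ strand), lost its peaks. The stretch of Hoxc13, at chr15:102920903-102921102 (+ strand), stands for the Hox clusters. That of Myod1, at chr7:46376274-46376473 (+ strand), shows a promoter that lost coverage and moved up in rank. Marcksl1, at chr4:129513381-129513580 (+ strand), gained peaks. Gm11168, at chr9:3003146-3003345 (+ strand), was the most covered promoter at P60. In its 1 Mb bin 93.5% of the sequence covered at P60 was repeated (defined with the bins), so reads there can belong to more than a single copy.
Rara: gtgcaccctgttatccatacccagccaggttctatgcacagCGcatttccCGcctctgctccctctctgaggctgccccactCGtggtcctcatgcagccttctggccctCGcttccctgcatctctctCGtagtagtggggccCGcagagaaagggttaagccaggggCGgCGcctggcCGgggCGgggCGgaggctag
Hoxc13: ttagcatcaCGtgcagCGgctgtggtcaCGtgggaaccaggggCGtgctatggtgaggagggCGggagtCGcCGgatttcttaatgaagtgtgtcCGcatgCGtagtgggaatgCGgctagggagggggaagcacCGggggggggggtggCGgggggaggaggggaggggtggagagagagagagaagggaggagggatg
Myod1: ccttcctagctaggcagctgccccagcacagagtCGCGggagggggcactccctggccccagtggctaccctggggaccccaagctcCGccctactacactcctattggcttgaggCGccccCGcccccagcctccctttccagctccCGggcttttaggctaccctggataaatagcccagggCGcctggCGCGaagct
Marcksl1: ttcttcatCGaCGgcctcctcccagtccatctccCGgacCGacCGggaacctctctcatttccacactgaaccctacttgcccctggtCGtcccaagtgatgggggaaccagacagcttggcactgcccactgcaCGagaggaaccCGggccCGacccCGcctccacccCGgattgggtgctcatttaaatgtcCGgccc
Gm11168: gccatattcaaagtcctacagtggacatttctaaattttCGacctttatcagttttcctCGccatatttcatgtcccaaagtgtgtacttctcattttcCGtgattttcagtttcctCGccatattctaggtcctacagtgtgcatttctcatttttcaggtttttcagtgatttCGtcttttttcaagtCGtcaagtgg

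The Rara and Hoxc13 stretches were fully covered in all 3 P7 libraries and at 0 in all 3 P60 libraries. The Myod1 stretch was fully covered at P7, and at P60 74.5% of it was covered in replicate 3 and none in replicates 1 and 2. The Marcksl1 stretch was bare at P7, and 100%, 35% and 100% of it was covered in P60 replicates 1, 2 and 3. The Gm11168 stretch was fully covered in all 6 libraries. The Rara, Hoxc13, Myod1 and Marcksl1 stretches hold 11, 12, 9 and 12 CpGs and 62.5% to 67% G and C, while the Gm11168 stretch holds 6 CpGs and 38.5% G and C. Over all genes the median count in the 200 bases before the 5′ end was 7 CpGs, and over the genes that fell it was 11.

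Less sequence lay under peaks at P60. The covered length was 15.2, 8.40 and 7.38 Mb in P7 replicates 1, 2 and 3 and 2.82, 1.48 and 3.61 Mb in P60 replicates 1, 2 and 3. Marked promoters numbered 5212, 4044 and 3506 at P7 and 1931, 1546 and 2432 at P60. By the study's western blot, total H3K27me3 was higher at P14 than at P7 and stayed so at P60. Covered length therefore did not follow the total amount of the mark. In tissue, fewer cells with the mark and less mark per cell cannot be told apart, and the part of peak calling was not tested. In covered length and in marked promoters the ages did not overlap. The two-sided exact permutation test gave p = 0.1 for each, the smallest that 3 libraries against 3 allow. The number of peaks did overlap, at 15388, 11852 and 8840 in P7 replicates 1, 2 and 3 and 15600, 7227 and 6905 in P60 replicates 1, 2 and 3. P60 replicate 1 thus had the most peaks of the 6 libraries. P60 replicates 1 and 2 stood apart in peak width, with medians of 134 and 149 bp, against 410 bp in P60 replicate 3 and 485 to 751 bp at P7.

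Fewer gene starts were covered at P60. At P7 the share of genes covered was highest 450 to 550 bp inside the gene, at 11.5%, 7.84% and 6.997% of genes in replicates 1, 2 and 3. At P60 it was highest 150 to 350 bp inside the gene, at 1.06%, 0.916% and 3.85%. At 5 kb from the start the share was 0.572% to 1.13% at P7 and 0.121% to 0.212% at P60, so that the peak stood 10.2 to 13.2 times above this level at P7 and 7.17, 7.58 and 18.2 times above it in P60 replicates 1, 2 and 3. The position of the highest share lay closer to the start in every P60 library than in any P7 library.

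**Figure D1:**
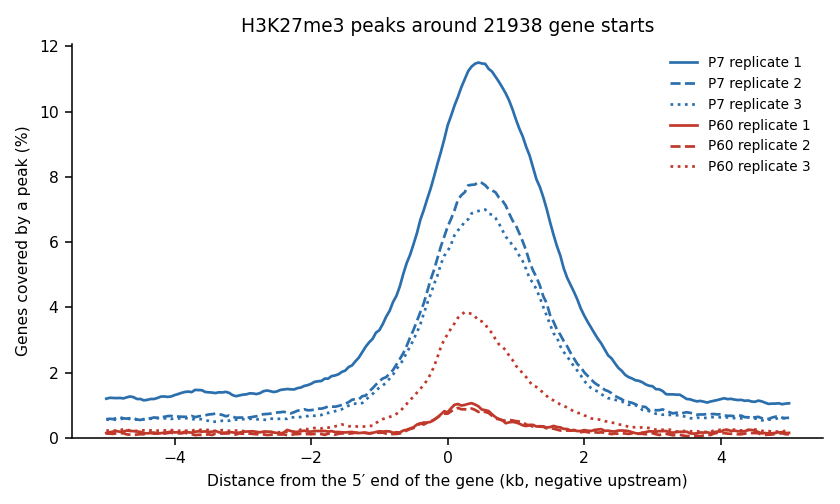
Percent of 21938 protein-coding genes with a peak at each distance (kb) from the gene's 5′ end, upstream negative, for each P7 (blue) and P60 (red) library. All 3 P7 lines lie above every P60 line at the gene start, and P60 replicate 3 reaches 3.85% where P60 replicates 1 and 2 reach 1.06% and 0.916%.

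Promoters fell far more often than they rose. Of 5120 promoters tested, 2347 fell in coverage from P7 to P60, or 45.8%, and 31 rose, or 0.605% (limma, Benjamini-Hochberg adjusted p under 0.05). The median change of all tested promoters was -12.0 points of coverage. With P60 replicate 3 as the only P60 library, 0 promoters were called by limma in either direction, in a fit that assumes the lone library varies like the other ages.

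A promoter that loses its peak also falls in rank, so ranks do not remove a general loss. On the rank scale 1295 promoters, or 25.3%, fell and 273, or 5.33%, rose, beside a median change of -18.7 percentile points over all promoters tested. Relative coverage, a gene's coverage over its library's average gene, was also tested, and 1093 fell (21.3%) and 275 rose (5.37%). Of the 2347 promoters that fell in coverage, 1174 also fell in rank and 26 rose in rank. All 31 promoters that rose in coverage rose in rank and in relative coverage as well.

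The promoters that fell were CpG-rich. Within 500 bp of the 5′ end, promoters that fell had a median of 57 CpGs per kb, those tested and not called had 42, and all 21938 genes had 41. Promoters that rose had 66, and those that rose in rank had 54. The 1265 promoters marked in every P7 and no P60 library had 58 CpGs per kb, and the 663 marked in all 6 libraries had 53. These medians are descriptions and were not tested.

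The 20 largest falls were led by Rara. Rara, which encodes a retinoic acid receptor, was covered at 65.6%, 62.7% and 71.9% in P7 replicates 1, 2 and 3 and at 0 in all P60 libraries. It ranked 34, 3 and 3 at P7, and its change was -66.7 points (SE 7.49, adjusted p = 0.000611 by limma). Emx1, a homeobox gene of the forebrain, fell from 65.2%, 60.4% and 60.3% to 0. Nptx1, a pentraxin of synapses, fell from 57.9%, 57.6% and 54.6% to 0, Adm, the peptide adrenomedullin, from 60.2%, 61.8% and 52.5% to 0, and Ccdc106 from 82.7%, 46.8% and 44.7% to 0. Only called genes with every P60 library below every P7 library entered this list, so the separation of the ages was a condition. Each of the genes named here also fell in rank.

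Others of the 20 largest falls kept a remnant in a P60 library or, in the case of Grm6, none. Wnt1, Wnt3a and Wnt10b, secreted signals, changed by -55.3, -54.5 and -54.2 points. The change was -55.6 points for Sox7, a factor of vessel cells, -53.1 and -53.0 points for Phox2a and Prrxl1, homeobox genes of autonomic and sensory neurons, and -52.9 points for Bcan, the matrix protein brevican. It was -53.0 and -52.1 points for Ovol1 and Ovol2, zinc finger factors of epithelia, -59.1 for Esrp1, an epithelial splicing factor, -59.8 for Prdm14, a germ cell factor, and -52.7 for Grm6, a metabotropic glutamate receptor of the retina. Ecel1 and Hs3st6, an endopeptidase-like gene and a heparan sulfate sulfotransferase, changed by -56.4 and -52.3 points.

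A remnant could still rank high at P60. Ovol1 was covered at 69.6%, 59.6% and 58.9% at P7 and at 0, 0 and 29.2% at P60, where 29.2% was rank 92 of P60 replicate 3. Prdm14 held 22.1% in that library, rank 288, and 0 in the other P60 libraries. Neither gene was called in rank or in relative coverage, whereas Rara, Emx1, Nptx1, Adm and Ccdc106 were called on all 3 scales.

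**Figure D2:**
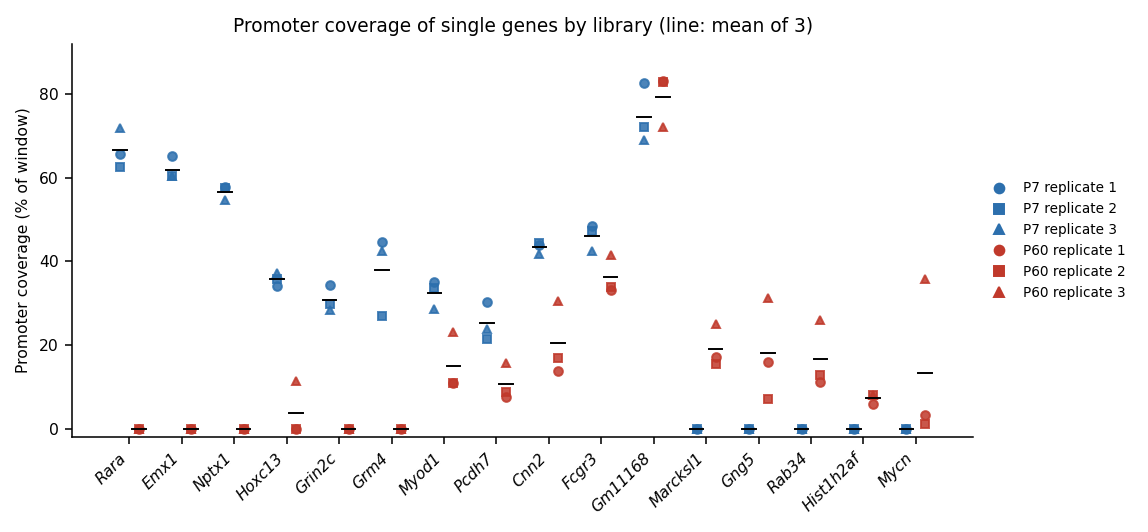
Promoter coverage (percent of the window, y axis) of 16 genes in each library, P7 in blue and P60 in red, with a line at the mean of 3. Rara, Emx1, Nptx1, Grin2c and Grm4 go to 0 in every P60 library, Gm11168 stays between 69.1% and 83.0%, and Marcksl1, Gng5, Rab34, Hist1h2af and Mycn are at 0 in every P7 library.

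Hox clusters lost nearly all of their coverage. All 39 Hox genes were tested, and 27 fell in coverage and 26 in rank, beside 45.8% and 25.3% of all promoters tested. P7 replicates 1, 2 and 3 marked 39, 39 and 31 of them, and P60 replicates 1, 2 and 3 marked 0, 1 and 5. In the HoxD cluster 9 of 9 genes fell, in HoxC 7 of 9, in HoxA 6 of 11 and in HoxB 5 of 10. Mean coverage of the HoxA genes was 25.4%, 14.4% and 13.2% at P7 and 0 in each P60 library. Relative to the mean of all genes, the HoxD genes stood at 5.72, 5.47 and 7.25 at P7 and at 0, 0.961 and 0 at P60, so they went from well above the average gene to at or below it.

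Single Hox genes showed the same pattern. Hoxa13, which patterns the limb and hindgut, was covered at 30.7%, 32.9% and 31.1% at P7 and at 0 at P60. Hoxc13, a factor of hair and nail, was covered at 34.2%, 35.9% and 37.2% at P7 and at 0, 0 and 11.4% at P60, and it fell by 31.9 points (SE 5.72, adjusted p = 0.00171). Hoxd13 held 2.98% in P60 replicate 2 alone.

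Other homeobox families were read in the same way, beside a fall in 45.8% of all promoters tested. The Irx genes, which pattern many organs in 2 clusters of 3, fell in 6 of 6 cases, the Dlx genes of forebrain interneurons and skeleton in 6 of 6, the LIM homeobox genes of neuron subtypes in 10 of 10 tested and the Nkx genes in 8 of 13. The Irx genes averaged 42.5%, 23.8% and 23.4% at P7 and 0.200%, 0 and 0.747% at P60. Their relative coverage went from 7.25 ± 0.379 to 0.345 ± 0.302 (SD, n = 3). Dlx relative coverage went from 7.66 ± 0.700 to 0.494 ± 0.428, and Nkx from 6.52 ± 0.671 to 0.362 ± 0.332. No library of one age overlapped those of the other in these 3 families on either scale. Rank calls were fewer in the LIM homeobox genes, with 3 of 10, near the share of 25.3% over all promoters tested.

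Among the remaining factor families the loss was graded, beside a fall in 45.8% of all promoters tested. T-box genes of heart, limb and blood fell in 12 of 13 tested and Gata genes of blood and gut in 4 of 5. Forkhead genes fell in 20 of 29, Pax genes in 5 of 8, bHLH genes in 18 of 29, nuclear receptors in 18 of 27 and Sox genes in 9 of 16. POU genes fell in 5 of 10, and their relative coverage of 3.59 ± 0.588 at P7 and 3.44 ± 0.807 at P60 overlapped, as did that of the Sox genes at 5.43 ± 0.853 and 3.44 ± 1.41. Pax genes kept 5.41% in P60 replicate 3 and 0.333% and 0.222% in the other P60 libraries. Coverage of Pou2f3, a factor of chemosensory cells, went from 28.4%, 28.6% and 26.3% to 7.57%, 9.05% and 20.1%, a fall of 15.5 points, while its rank went from 1877, 914 and 1010 to 294, 164 and 394 and was not called (adjusted p = 0.0651). It rose in relative coverage (adjusted p = 0.0256).

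Together, the 325 homeobox and patterning factors had 242 tested promoters, of which 168 fell in coverage, 115 fell in rank and 3 rose in rank. The shares over all promoters tested were 45.8%, 25.3% and 5.33%. The factors had a median change of -23.7 points and -35.6 percentile points, beside -12.0 and -18.7 over all promoters tested. Mean relative coverage was 4.56, 4.74 and 4.81 at P7 and 1.68, 1.48 and 2.53 at P60. The number depended on the peaks used. With every list cut to the covered length of the smallest, taking peaks from the highest -log10 q down, 9 patterning promoters fell, beside 250 falls and 50 rises over all promoters. Hox peaks were not among the strongest of the P7 lists. The top peak over the HoxD locus ranked 2258, 1727 and 1646 by -log10 q in P7 replicates 1, 2 and 3.

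**Figure D3:**
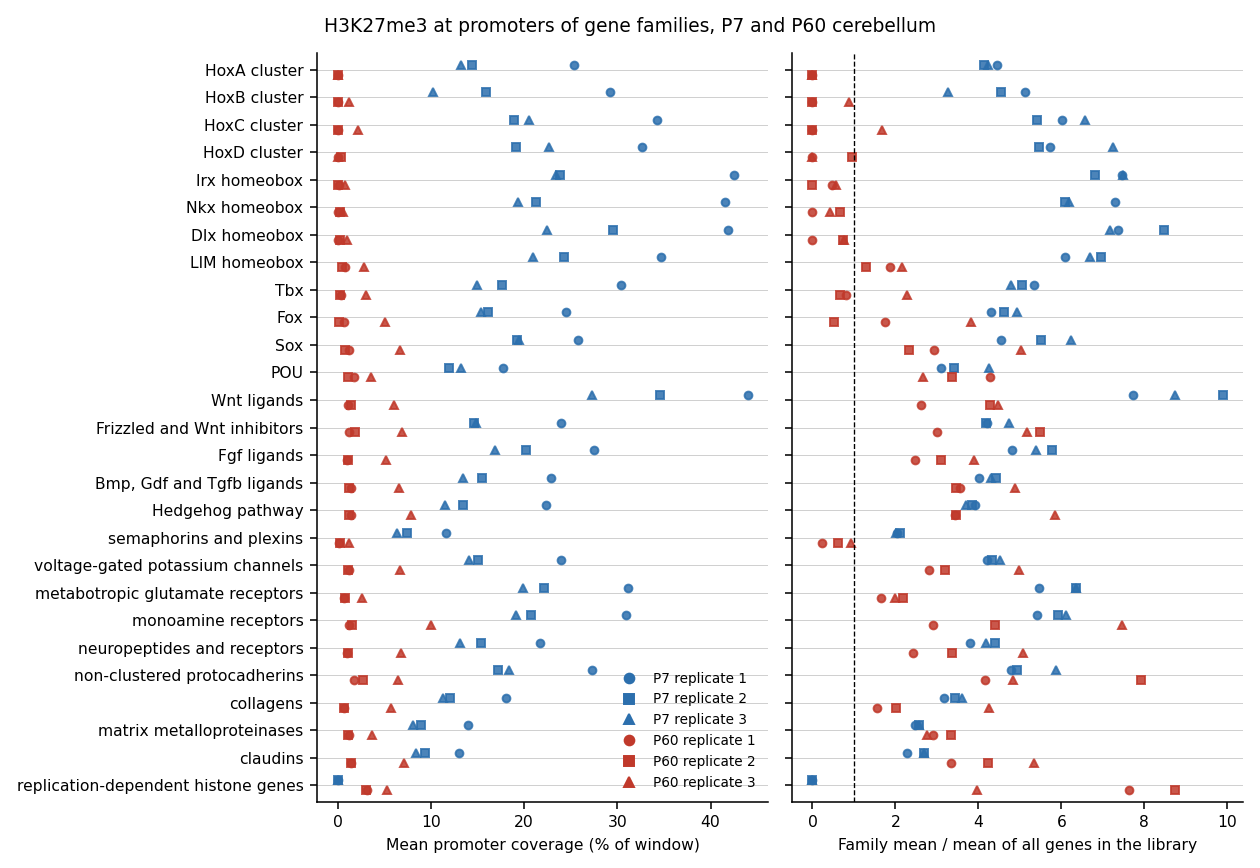
Mean promoter coverage of 27 gene families in each library (left, percent of the window) and the same divided by the mean of all genes in that library (right, dashed line at 1). On the left every family but the histone genes lies lower at P60. On the right the Hox, Irx, Nkx and Dlx families drop to below 2 while POU, Bmp, Hedgehog, monoamine receptor and protocadherin families overlap between ages and claudins and histone genes lie higher at P60.

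Secreted signals split by family. Of 177 signalling promoters tested, 99 fell in coverage, 44 fell in rank and 9 rose in rank. The shares over all promoters tested were 45.8%, 25.3% and 5.33%, so the rank counts were near them. Wnt ligands fell in 16 of 19 cases, from a mean of 44.0%, 34.6% and 27.3% to 1.10%, 1.48% and 6.001%, and relative coverage went from 8.78 ± 1.08 to 3.79 ± 1.02 without overlap. Frizzled receptors and Wnt inhibitors fell in 10 of 18, and their relative coverage of 4.37 ± 0.319 and 4.55 ± 1.35 overlapped between the ages. Bmp, Gdf and Tgfb ligands fell in 11 of 19 and Bmp antagonists in 6 of 12, and relative coverage overlapped in both. Hedgehog pathway genes, which drive GNP division, fell in 4 of 10. Gli1, a Hedgehog target, was covered at 30.9%, 28.6% and 19.2% at P7 and at 3.32%, 9.40% and 19.5% at P60, which overlapped in coverage, and it rose in rank.

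Among guidance families, semaphorins and plexins, and netrins, Slits and their receptors, lay below their P7 level on both scales. Semaphorins and plexins fell in 9 of 16 cases and in rank in 7, beside 45.8% and 25.3% of all promoters tested. Netrins, Slits and their receptors fell in 6 of 13, near the share of all promoters. Relative coverage of semaphorins and plexins went from 2.06 ± 0.05 to 0.594 ± 0.346. Sema3f, a repellent of axons, fell from 57.7%, 35.3% and 33.1% to 0. Robo3, a receptor of commissural axons, fell from 53.2%, 50.0% and 40.7% to 0, 0 and 6.95%. Ephrins and Eph receptors fell in 8 of 15, and their relative coverage of 3.18 ± 0.0930 and 2.59 ± 0.590 overlapped.

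Genes of excitability fell in 110 of 196 tested promoters, in rank in 46, and 9 rose in rank. The shares over all promoters tested were 45.8%, 25.3% and 5.33%, so the rank counts were near or below them. Metabotropic glutamate receptors fell in 6 of 7 cases, from 31.1%, 22.2% and 19.9% to 0.690%, 0.752% and 2.65%, and their relative coverage went from 6.06 ± 0.511 to 1.94 ± 0.268. Leak and inward rectifier potassium channels fell in 13 of 17, voltage-gated potassium channels in 18 of 29 and voltage-gated calcium channels in 11 of 17. Kcnc4, a fast potassium channel, fell by 44.4 points (SE 4.90, adjusted p = 0.000523), and Cacna1i, a T-type calcium channel, by 43.2 points. Both were at 0 in every P60 library. Voltage-gated potassium channels overlapped in relative coverage, at 4.35 ± 0.161 and 3.66 ± 1.15.

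Receptor families of other transmitters overlapped between the ages in relative coverage. Monoamine receptors fell in 16 of 24 cases, from 30.9%, 20.7% and 19.1% to 1.21%, 1.52% and 9.99%. Their relative coverage was 5.42, 5.93 and 6.10 at P7 and 2.89, 4.41 and 7.46 at P60, so that the highest value belonged to P60 replicate 3. Neuropeptides and their receptors fell in 23 of 43, with 6 falls and 2 rises in rank, and relative coverage again overlapped, at 4.13 ± 0.298 and 3.62 ± 1.34. GABA and glycine receptors fell in 3 of 9 and acetylcholine receptors in 3 of 9, and mean coverage of the former overlapped too. Of all promoters tested 45.8% fell, so the counts of the last 3 families were near or below that share. Adrb1, the beta-1 adrenoceptor, fell from 54.8%, 44.1% and 40.9% to 0, whereas Adra2b, an alpha-2 adrenoceptor, went from 47.3%, 38.7% and 36.3% to 6.82%, 4.45% and 36.7%. The last value was rank 22 of P60 replicate 3.

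Adhesion and matrix families overlapped between the ages relative to other genes, apart from claudins and metalloproteinases, which lay higher at P60. Of 94 tested promoters 48 fell in coverage, beside 45.8% of all promoters, 15 fell in rank, beside 25.3%, and 7 rose in rank, beside 5.33%. Relative coverage of the whole group was 2.82 ± 0.123 at P7 and 2.84 ± 1.03 at P60. Claudins, which seal tight junctions, fell in 4 of 11 cases in coverage, yet their relative coverage was 2.28, 2.68 and 2.69 at P7 and 3.34, 4.24 and 5.34 at P60. Matrix metalloproteinases stood at 2.54 ± 0.0625 at P7 and 3.00 ± 0.304 at P60 on that scale. In both families the order of the ages was opposite on the coverage and the relative scales. Mmp9, a secreted gelatinase, was covered at 48.1%, 44.0% and 44.1% at P7 and at 10.2%, 10.98% and 31.6% at P60, and it fell in coverage and rose in relative coverage (adjusted p = 0.0228).

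Collagens fell in 14 of 27 cases and non-clustered protocadherins in 6 of 9, beside 45.8% of all promoters tested. Col13a1, a transmembrane collagen, fell from 47.9%, 44.8% and 46.1% to 0. Col8a2, a collagen of basement membranes, fell from 49.4%, 41.5% and 35.5% to 6.10%, 9.25% and 33.2%. Pcdh1, a protocadherin, fell to 0, while Pcdh7, another, went from 30.2%, 21.5% and 23.9% to 7.55%, 8.67% and 15.8% and rose in rank, from 1666, 1569 and 1192 to 297, 179 and 677.

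Receptor gene arrays of the nose carried little coverage at either age. Of 1135 olfactory receptor genes 26 were tested and 1 fell, and of 327 vomeronasal receptor genes 25 were tested and none was called. Mean coverage of olfactory receptors was 0.178%, 0.0611% and 0.0767% at P7 and 0.0637%, 0.0246% and 0.0670% at P60, which overlapped. Zinc finger genes named Zfp fell in 10 of 54 tested cases, beside 45.8% of all promoters tested. Ribosomal protein genes, which are active in every cell, fell in 2 of 14. Keratins fell in 7 of 9 and cytochrome P450 genes in 9 of 15, with relative coverage at P7 of 1.05 and 0.977, near the average gene. Imprinted genes fell in 9 of 13, and Gnas, which encodes a G protein subunit, went from 45.8%, 44.2% and 43.9% to 0, 2.45% and 0. Genes of Polycomb subunits and H3K27 enzymes fell in 7 of 11. Bmi1, a subunit of Polycomb repressive complex 1, went from 55.2%, 17.7% and 57.0% to 0.

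The rises were mostly replication-dependent histone genes, which are expressed in S phase and packed in clusters. None of the 67 was marked in any P7 library, while P60 replicates 1, 2 and 3 marked 39, 41 and 41. Of 43 tested, 26 rose in coverage and 35 in rank, beside 0.605% and 5.33% of all promoters tested. All 26 that rose in coverage lay on chromosome 13 between 21715763 and 23764406 (GRCm38). Hist1h2af and Hist1h3g, which are neighbours with identical values, went from 0 to 5.95%, 8.08% and 8.13%, a change of 7.39 points (SE 1.93, adjusted p = 0.00937). Because neighbours share windows, the 26 genes gave 14 distinct sets of values. No histone promoter could pass the filter through a P7 library, and a promoter at 0 at P7 can only rise, so the direction of these calls was fixed by the filter. These genes are near-identical copies, so reads may be divided among them. The count of 26 became 17 without P7 replicate 1, 15 without P7 replicate 2, 17 without P14 replicate 2 and 10 once peaks with -log10 q below 2 were removed.

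The other 5 rises lay outside the histone list. Marcksl1, a gene of actin regulation in growing neurons, went from 0 in every P7 library to 17.1%, 15.4% and 25.0%, with ranks 50, 56 and 182 at P60, and rose by 19.2 points (SE 4.07, adjusted p = 0.00356). Gng5, a G protein gamma subunit, went from 0 to 16.0%, 7.03% and 31.2%, and Rab34, a GTPase of cilium formation, from 0 to 11.2%, 12.8% and 25.9%. Arg1, arginase 1, rose from 0 to 3.75%, 3.62% and 3.53% and Gm17364, a gene model, from 0 to 5.42%, 1.62% and 3.87%. All 5 were unmarked in each P7 library, so the same holds for their direction. The count of 31 rises became 17 without P7 replicate 2.

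Promoters that stayed marked shrank. Of 3128 promoters marked in every P7 library, 663 were marked in all 6 libraries, or 21.2%, and 1265 in no P60 library, or 40.4%. The 663 were 80.2% of the 827 promoters marked in every P60 library. Their median coverage was 31.5%, 25.4% and 24.2% in P7 replicates 1, 2 and 3 and 4.97%, 4.68% and 16.2% in P60 replicates 1, 2 and 3. Only 68 promoters were marked in every P60 and no P7 library.

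The promoters that ranked highest in every P60 library were led by gene models in arrays. Gm11168, on chromosome 9 near 3 Mb, was rank 1 in all 3 P60 libraries and rank 4, 1 and 4 at P7. Its coverage of 82.7%, 72.1% and 69.1% at P7 and 83.0%, 82.8% and 72.0% at P60 overlapped. Gm21738 was covered at 61.9% to 62.5% in all 6 libraries. None of the models Gm10715, Gm10717, Gm10719, Gm10720, Gm10721, Gm10722 and Gm17535, neighbours of Gm11168 on chromosome 9, was called in coverage. Their bin holds repeated sequence (given with the bins), so reads can belong to more than a single copy.

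Named genes also stood in this list, which was chosen by P60 ranks, so a rise in rank or relative coverage is in part built in. Fcgr3, an antibody receptor of immune cells, was covered at 48.4%, 47.4% and 42.5% at P7 and at 33.2%, 33.9% and 41.6% at P60, with P60 ranks of 14, 10 and 13. It was not called in coverage (adjusted p = 0.238) and rose in relative coverage (adjusted p = 0.0377). Ppp4r2, a phosphatase subunit, and Coil, which builds Cajal bodies, went from P7 ranks of 313, 1099 and 75 and 297, 403 and 84 to P60 ranks of 67, 43 and 28 and 38, 105 and 7. Both rose in relative coverage and neither was called in coverage or rank. Cnn2, a calponin, fell from 43.9%, 44.3% and 41.9% to 13.8%, 16.9% and 30.6% and rose in relative coverage (adjusted p = 0.0301 by limma), though not in rank (adjusted p = 0.232). Its ranks went from 543, 154 and 195 to 77, 44 and 71.

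Among the 26 promoters that fell in coverage and rose in rank, several were named after their values were seen. Rasl10a, a Ras-like gene, went from 46.1%, 33.6% and 38.8% to 11.9%, 15.2% and 28.1%, and from ranks of 443, 576 and 294 to 110, 58 and 117. Nid1, a basement membrane protein, went from ranks of 1431, 911 and 689 to 130, 66 and 322, and Lox, a collagen crosslinking enzyme, from 1282, 774 and 940 to 211, 58 and 356. Myod1, a muscle factor, went from 35.1%, 33.8% and 28.7% to 10.9%, 10.8% and 23.2%, a fall of 17.5 points (adjusted p = 0.0304), and from ranks of 1153, 566 and 802 to 134, 113 and 241. For all 4 genes coverage was lower in every P60 than in every P7 library and the rank was higher.

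Whole loci were read as covered length from the first to the last gene with 10 kb on each side. The HoxA locus, 52145590 to 52328378 on chromosome 6, held 37.4, 16.4 and 13.6 kb of peaks at P7 and 0.114, 0.235 and 0.465 kb at P60. HoxD, 74642991 to 74775142 on chromosome 2, held 28.9, 15.7 and 18.5 kb at P7 and 0, 0.179 and 0.527 kb at P60. As a mean share of all covered sequence, HoxD went from 2.09 to 0.0890 permille. The pair Dlx1-Dlx2 went from 6.22, 5.23 and 2.50 kb to 0 in all P60 libraries. The Nkx2-1 to Pax9 locus kept 0.145 kb in P60 replicate 3 and nothing in the others. At each of these loci the ages did not overlap.

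Some loci kept more, mainly in P60 replicate 3. Wnt6-Wnt10a held 12.5, 8.21 and 7.20 kb at P7 and 0.836, 0.323 and 4.58 kb at P60, and its share of covered sequence was 0.823, 0.978 and 0.976 permille at P7 and 0.297, 0.218 and 1.27 permille at P60. P60 replicate 3 thus lay above every P7 library in share and P60 replicates 1 and 2 below. The Wnt1-Wnt10b pair, with a like start of 9.89, 7.84 and 7.38 kb, ended at 0, 0.394 and 0.239 kb. The type II keratin cluster went from 16.6, 12.1 and 10.7 kb to 1.495, 0.969 and 5.17 kb. At Cdkn2a-Cdkn2b, cell cycle inhibitors and a known Polycomb target, covered length was 6.95, 4.70 and 4.55 kb at P7 and 0.553, 0.248 and 1.76 kb at P60. Its strongest peak ranked 270, 134 and 222 by -log10 q at P7 and 1143, 3416 and 225 at P60.

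**Figure D4:**
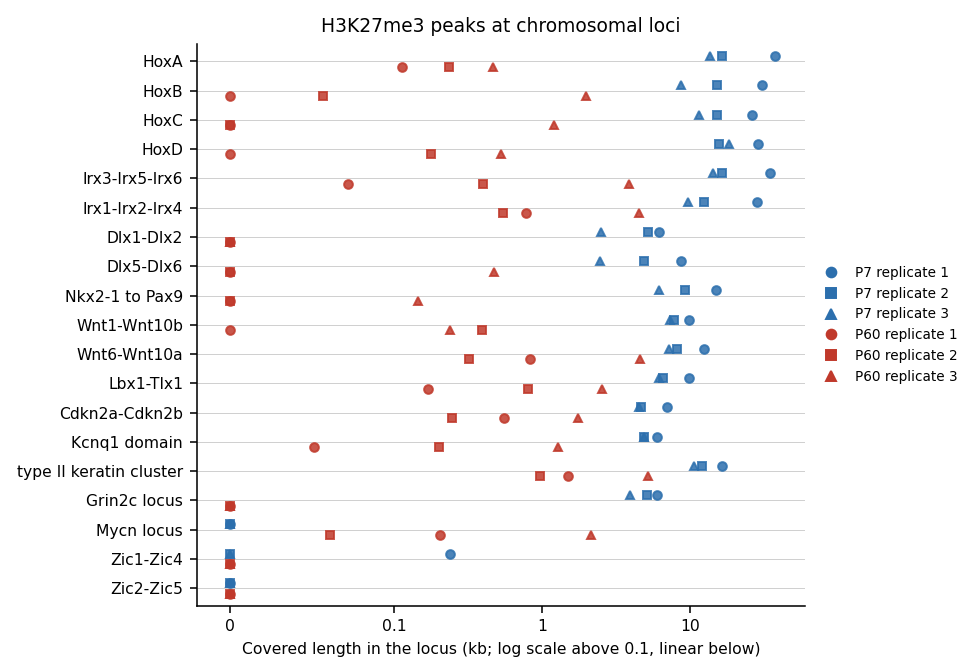
Covered length in kb (x axis, log scale above 0.1 kb and linear below) at 19 loci in each library, P7 in blue and P60 in red. At every Hox, Irx and Dlx locus and at Nkx2-1 to Pax9 the 3 P60 libraries lie below the 3 P7 libraries, the Zic2-Zic5 locus is at 0 in all 6, and the Mycn locus is at 0 in every P7 library.

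Some of the promoters that fell were neighbours. There were 83 runs of 3 or more neighbouring protein-coding genes that all fell. The longest held 10 genes, 9 Hoxd genes and the gene model Gm28230, 74668310 to 74765142 on chromosome 2, with mean coverage of 24.9% at P7 and 0.0994% at P60. Next came 6 genes of HoxC and 6 genes from Pxmp2 to Galnt9 on chromosome 5, 110274282 to 110621380, at 22.9% and 1.25%. A run of 5 on chromosome 1 held Wnt6, Wnt10a, Cdk5r2, Fev and Cryba2, at 39.1% and 3.72%, and another held Pkp1, Igfn1, Tmem9, Ascl5 and Cacna1s, at 19.4% and 2.74%. Neighbours can share a window, so such genes are not independent and a run can repeat a measurement. How many runs would arise if the falls were placed without regard to position was not computed.

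Bins of 1 Mb showed the same loss without gene lists. Of 2507 bins tested, 989 fell, or 39.4%, and 1 rose, or 0.0399%, and the median change was -0.71 on the log2(kb + 1) scale. The count of falls was 630 without P7 replicate 1 and 578 without P60 replicate 2. The largest fall was the HoxD bin from 74 Mb on chromosome 2, with 33.3, 16.3 and 18.9 kb at P7 and 0.0640, 0.253 and 2.06 kb at P60 (log2 change -3.83, SE 0.58, adjusted p = 0.000495). Next came the bin of Nr2f2 on chromosome 7, which encodes a nuclear receptor of veins and interneurons, at 28.8, 11.9 and 11.1 kb and 0.341, 0 and 0.331 kb. Others held HoxA, Rara with Erbb2, Pax2 with Wnt8b, Wnt3 with Wnt9b, and Gsx1 with Pdx1 and Cdx2. In each of these the P60 libraries lay below the P7 libraries.

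None of the 10 bins with the most coverage at P60 was called in covered length. Divided by the library's mean, 9 of the 10 rose, beside 124 of all 2507 bins tested. The 10 were chosen by their P60 values, so a rise in them is in part built in. The bin from 15 Mb on chromosome 5, which holds the Speer4c and Speer4d genes, had 50.6, 49.5 and 64.3 kb at P7 and 87.1, 47.4 and 41.2 kb at P60 and was rank 1 in every P60 library (log2 change 0.03, adjusted p = 0.97). The bin from 20 Mb on chromosome 8 held 35.4, 31.9 and 28.2 kb and 44.6, 16.5 and 23.1 kb, and the bin of Sp110 and Sp140 on chromosome 1, which hold immune nuclear body genes, 18.2, 18.7 and 25.3 kb and 50.2, 13.8 and 16.4 kb. The bin from 3 Mb on chromosome 9, with Gm11168, held 25.5, 19.999 and 23.5 kb and 24.1, 23.4 and 18.3 kb. In all 4 the ages overlapped. The bin that rose, from 101000001 on chromosome 1, was at 0 in every P7 library and at 1.24, 1.14 and 0 kb at P60, so P60 replicate 3 did not share it.

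The sequence covered at P60 in 9 of these 10 bins was mostly repeated. The exception, from 3 Mb on chromosome 11, had 12.8% of its covered sequence repeated. A base was counted as repeated where a 50-base word holding it occurs more than once in the same 1 Mb bin on either strand. In the 10 bins highest at P60, a median of 93.2% of the sequence covered at P60 was repeated, against 27.6% over all bins with a peak and 3.02% in the 10 bins with the largest fall. Peaks over repeated sequence covered 1.43, 1.28 and 1.23 Mb at P7 and 1.61, 0.784 and 0.838 Mb at P60, which overlapped. Peaks over all other sequence covered 13.8, 7.10 and 6.13 Mb at P7 and 1.12, 0.681 and 2.76 Mb at P60, which did not. The repeated share of covered length was therefore 9.43%, 15.2% and 16.8% at P7 and 58.8%, 53.5% and 23.3% at P60. Whether repeated sequence keeps the mark or gathers misplaced reads was not tested.

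**Figure D5:**
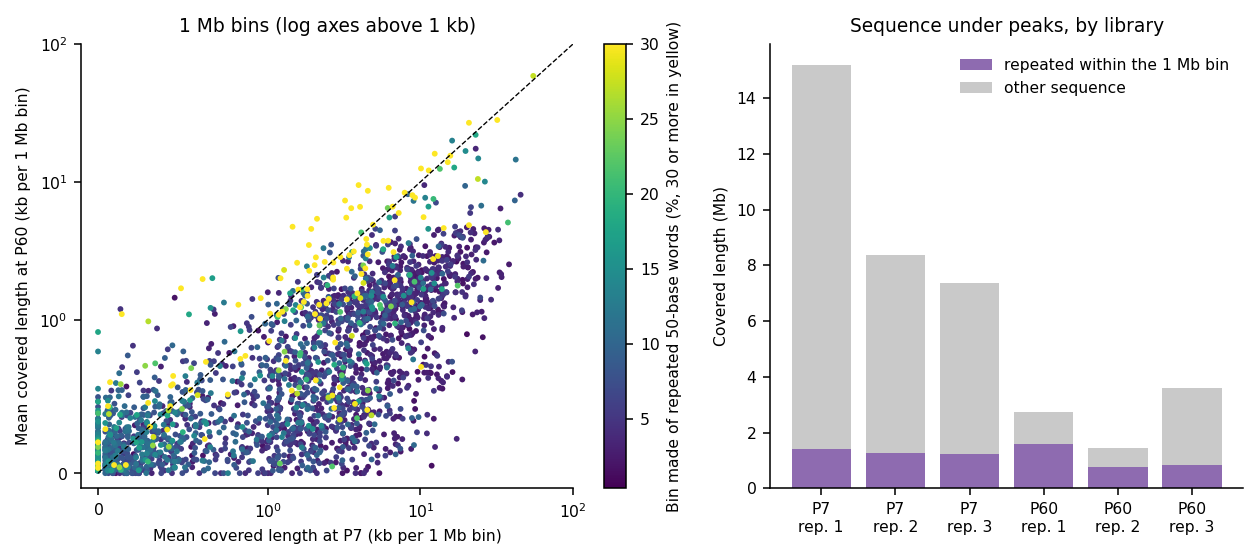
Left, mean covered length of 1 Mb bins at P7 and P60 (kb, log axes above 1 kb), coloured by the percent of the bin made of repeated 50-base words, with a dashed line of equality. Right, covered length of each library divided into repeated and other sequence (Mb), where the repeated part is 0.784 to 1.61 Mb in all 6 libraries and the other part is lower in every P60 library.

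Covered length was lower in every P60 than in every P7 library on all 19 autosomes and on X, while chromosome Y overlapped. Covered length per Mb was highest on chromosome 11 at P7, at 6.47 ± 2.66 kb, and went to 1.13 ± 0.663 kb at P60. Chromosome 5 was highest at P60, with 5.12 ± 2.02 kb at P7 and 1.58 ± 0.544 kb at P60. Chromosome X carried 1.53, 1.38 and 1.19 kb per Mb at P7 and 0.798, 0.449 and 0.457 kb at P60, the lowest of all but chromosome Y at P7. Of 103 promoters tested on X, 31 fell, none rose and 28 fell in rank, beside 45.8%, 0.605% and 25.3% of all promoters tested.

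Genes that the study shows as examples were read in the same way. Grin2c, the NMDA receptor subunit of mature CGNs, was covered at 34.3%, 29.7% and 28.3% at P7 and at 0 at P60, a fall of 30.8 points (SE 5.75, adjusted p = 0.00204). Grm4, a metabotropic glutamate receptor of CGN terminals, fell from 44.7%, 27.03% and 42.4% to 0. Mycn, a driver of GNP division, was at 0 at P7 and at 3.38%, 1.02% and 35.9% at P60. It was not called in coverage (adjusted p = 0.209) and rose in rank, and most of its coverage came from P60 replicate 3. Myc was covered at 18.4%, 2.50% and 0 at P7 and at 3.95%, 0 and 3.45% at P60, and Atoh1, the factor of GNP identity, at 22.1%, 12.2% and 10.6% and at 2.43%, 3.65% and 0. Neither was called, with adjusted p of 0.603 and 0.101.

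The labelled tissue was checked against marker genes, where a gene in use should lack the mark. Zic1, Zic2, Gabra6, Etv1, Nfia and Cbln3, genes of the granule lineage, were at 0 in all 6 libraries. Of 12 such genes 3 were tested and 1, Cbln1, fell. P7 replicates 1, 2 and 3 marked 5, 3 and 1 of the 12, and no P60 library marked any. Of all genes, 23.8%, 18.4% and 16.0% were marked in P7 replicates 1, 2 and 3, and 7.05% to 11.1% at P60. Most genes were thus at 0 in each library, so a marker at 0 cannot by itself identify the tissue. The En1 locus held 4.11, 4.08 and 2.54 kb at P7 and the En2 locus 2.37, 0.608 and 0.611 kb, with 0 in every P60 library. The Zic1-Zic4 locus held 0.239 kb in P7 replicate 1 and nothing elsewhere, and Zic2-Zic5 nothing at all. Forebrain markers were covered at P7, with all 10 marked in each P7 library, and 9 of 10 fell. Markers of spinal cord and posterior hindbrain fell in 5 of 7 cases. Markers of other cerebellar cells moved as well, beside a fall in 45.8% of all promoters tested. Purkinje cell markers fell in 3 of 4 tested, interneuron markers in 5 of 7, glial markers in 4 of 6, and markers of microglia and vessels in 2 of 4. Aif1, Csf1r, Cx3cr1 and Pecam1 of the last list, Pcp2 of Purkinje cells, and Gfap and Mbp of glia were at 0 in every library. The part of cell composition in these values was not tested.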

How the data were processed

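Peak lists of 6 libraries, P7 and P60 with 3 each, were compared, and 3 P14 libraries of the same age series entered only the filter and the estimate of spread. The submitters' notes name Trimmomatic 0.38 for trimming, STAR 2.7.2b for alignment to mm10 and MACS2 2.1 for broad peaks. No input library is named in the sources used here. Each list deposited by the authors gives positions, a fold enrichment (ratio) over background, the −log10 of both p and q, and an integer score that is −log10 q times 10. The lowest −log10 q in these lists was 1.00 to 1.01, so they include peaks weaker than the false discovery rate that the study states. Lists of the knockout experiment were not used here. The authors' DESeq2 test needs read counts and was not repeated.

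Coverage of TSS windows (GENCODE vM21) and of 1 Mb bins was computed from positions and compared with limma 3.58.1 in R 4.3.3 (trend and robust variance) over features covered in 2 or more of the 9 libraries, bins as log2(kb + 1). Adjusted p under 0.05 was called. On simulated data, 95 of 100 promoters changed by 30 points and 61 of 100 changed by 15 points were called, with 5 of 4920 unchanged promoters called. None of the changed promoters came from those with the widest spread between libraries. Whether the simulated rates hold for such promoters, or for the libraries themselves, where many promoters were unmarked at P60, was not tested. P-values measure the spread between libraries. Named genes were the 20 largest called falls without overlap of the ages and all rises. They also included the 15 promoters with the best lowest rank at P60, marker genes and the study's examples. Per family, the largest fall and the highest P60 mean were added. Some of these genes are not reported here. Members, families and all lists were chosen with earlier results of these data known, so families are described by counts and medians with no test. Python 3.11.15 and numpy 2.4.6 were used.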

Additional observations from a re-analysis of the deposited data

Results flagged for a closer look

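The 1 Mb bins left out chromosome Y, while covered length per library included it. Peaks on chromosome Y numbered 529 in P60 replicate 1 and 77 in P60 replicate 2. Both counts lay above the highest P7 count of 53, and for that reason they are listed. P60 replicate 3 had 30, below all P7 libraries, so the ages overlapped. Both sexes were used and no source used here gives the sex of a library.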

How the results depend on the processing

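The falls in covered length and in marked promoters kept their direction in each library left out and when paired by number. The promoter count of 2347 falls became 421 with peaks of -log10 q of 4 or more, 250 at equal covered length, 1093 in relative coverage, 1295 in rank and 0 with P60 replicate 3 as the only P60 library, and 1588 to 2731 with a library left out. The 31 rises became 10 and 8 with peaks of -log10 q of 2 or 4 or more, 7 with peaks of 300 bp or more, 50 at equal covered length, 12 over promoters covered in 1 or more libraries, 275 in relative coverage, 273 in rank and 0 with P60 replicate 3 alone, and 17 to 41 with a library left out, the lowest without P7 replicate 2.

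The 989 bins that fell became 205 with peaks of -log10 q of 4 or more, 80 at equal covered length, 240 in relative coverage and 0 with P60 replicate 3 alone, and 578 to 1064 with a library left out. The 1 bin that rose became 2 with peaks of -log10 q of 2 or more, 0 with peaks of 300 bp or more, 57 at equal covered length, 0 over bins covered in 1 or more libraries, 2 with only the 6 libraries, 124 in relative coverage, 0 with P60 replicate 3 alone, 2 with bins of 0.5 Mb and 2 with a pseudocount of 0.1 kb, and 0 to 10 with a library left out, the highest without P60 replicate 3. The 168 patterning promoters that fell became 104 and 14 with peaks of -log10 q of 2 or 4 or more, 9 at equal covered length, 81 in relative coverage and 0 with P60 replicate 3 alone, and 118 to 178 with a library left out. The 26 histone genes that rose became 10 and 8 with peaks of -log10 q of 2 or 4 or more, 3 with peaks of 300 bp or more, 9 and 13 over promoters covered in 1 or 4 or more libraries, 17 in windows of 1 kb and 0 with P60 replicate 3 alone, and 15 to 25 with a library left out. The cause was not tested.

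Deviations from the age means correlated at -0.0631, -0.0126 and -0.0169 between P7 and P60 libraries of number 1, 2 and 3. Many promoters were unmarked at P60, so these values cannot exclude a shared preparation. What libraries of the same number share is not known. With the replicate block the counts were 2044 falls and 10 rises of promoters, 854 falls and 2 rises of bins, 149 patterning promoters and 7 histone genes.

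Single genes turned in direction under rescaling. At equal covered length the change was 2.19 points for Wnt1, 0.800 for Phox2a, 3.54 for Hs3st6, 12.7 for Myod1, 1.77 for Adra2b and 10.7 for Pcdh7. Of these Pcdh7 was called. In relative coverage, in scaled points, it was 57.2 for Cnn2, 30.4 for Pou2f3, 40.1 for Myod1, 20.6 for Adra2b, 28.9 for Pcdh7, 27.6 for Col8a2 and 36.0 for Mmp9. In rank it was 1.06, 4.49, 3.09, 0.276, 4.98, 0.458 and 0.542 percentile points for Cnn2, Pou2f3, Myod1, Adra2b, Pcdh7, Col8a2 and Mmp9. Of 49 named genes called, 37 were called with each library left out in turn. Read depth is unknown, so no counting limit can be given.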
